A study of Mus musculus with 20 samples.

Results

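The 9 genes described here encode proteins known to act on crystals in urine or to bind them at the tubule surface. They are the crystal inhibitors Spp1, Umod, Mgp and Ambp, the hyaluronan receptor Cd44, the hyaluronan synthases Has1 and Has2, and the annexins Anxa1 and Anxa2. They were taken from a list of gene names, drawn up with earlier results of these data known, and make up 9 of the 25700 gene identifiers counted. Their levels were compared across 20 mouse RNA sequencing libraries in 4 groups of 5. Untreated control mice and control mice given alkali formed 2 groups, and oxalate mice without and with alkali formed the others. The series describes crystal nephropathy, a kidney disease caused by crystals, with bicarbonate as the alkali. The labels give no strain, sex, age, tissue, oxalate dose or sampling time, and do not explain the word "late" in the names of the alkali groups. All alkali libraries and no untreated ones carry that word, so alkali and what the word stands for cannot be told apart. The labels also do not say that each library came from its own animal. The p-values here thus measure the spread between libraries, which may be technical.

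Calcium oxalate crystals form in tubular fluid, and retention in the kidney begins when they stick to the surface of tubule cells. Secreted proteins that coat crystals, such as osteopontin (Spp1), uromodulin (Umod), matrix Gla protein (Mgp) and bikunin (cut from the Ambp precursor), slow their growth, aggregation or attachment. Hyaluronan, a long sugar chain made at the plasma membrane by Has enzymes and held there by CD44, and annexins exposed on the cell surface are described crystal-binding sites of regenerating or injured tubule cells.

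Total counts per library ran from 25547840 to 39550689. Levels are CPM, counts relative to a library's size after scaling by TMM, the trimmed-mean method of edgeR. Markers of proximal tubule (summed level 5316 to 21376 CPM) and of thick ascending limb (1459 to 2123 CPM) were present in every library, with no marker at 0 throughout a group. Adipoq, a fat-cell gene, was above 1 CPM in 6 libraries, namely control 26 and 9, alkali-treated control 1 and 4, untreated oxalate 32 and alkali-treated oxalate 33. After a filter on low counts, 15430 genes were tested, with 7 of the 9 members among them. Has1 and Has2 had too few counts to pass. Calls rest on edgeR's quasi-likelihood test, fitted to all 20 libraries, with a Benjamini-Hochberg adjusted p under 0.05. Replacing TMM by plain total counts moved the median of all genes in oxalate libraries without alkali up by 0.30 on the log2 scale, so changes of that size are relative to the scaling.

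Promoter sequences are shown for 4 of the members that were higher together in oxalate libraries, Spp1, Cd44, Anxa1 and Anxa2, and for Umod, whose level was close to control. Each line gives the 250 bases before the RefSeq transcription start (GRCm38.p6), read 5′ to 3′ on the gene's strand, with motif matches in capitals. RefSeq promoters were found for 7 of the 9 members. The windows are chr5:104434861-104435110 (plus strand) for Spp1, chr2:102901666-102901915 (minus) for Cd44, chr19:20390672-20390921 (minus) for Anxa1, chr9:69453433-69453682 (plus) for Anxa2 and chr7:119479263-119479512 (minus) for Umod.
Spp1: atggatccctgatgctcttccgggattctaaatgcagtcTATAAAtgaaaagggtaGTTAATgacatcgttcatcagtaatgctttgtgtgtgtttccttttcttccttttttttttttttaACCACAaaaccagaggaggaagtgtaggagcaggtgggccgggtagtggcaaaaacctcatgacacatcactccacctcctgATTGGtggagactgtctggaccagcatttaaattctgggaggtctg
Cd44: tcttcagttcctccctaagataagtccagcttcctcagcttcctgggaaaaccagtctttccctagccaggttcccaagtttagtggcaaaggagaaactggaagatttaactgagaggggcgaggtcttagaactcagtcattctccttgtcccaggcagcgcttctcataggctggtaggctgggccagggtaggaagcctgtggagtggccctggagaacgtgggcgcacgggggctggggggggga
Anxa1: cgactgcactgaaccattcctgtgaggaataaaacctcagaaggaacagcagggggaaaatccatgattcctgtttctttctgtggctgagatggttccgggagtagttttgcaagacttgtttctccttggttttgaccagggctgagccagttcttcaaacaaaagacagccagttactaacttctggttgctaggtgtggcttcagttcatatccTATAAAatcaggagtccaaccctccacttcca
Anxa2: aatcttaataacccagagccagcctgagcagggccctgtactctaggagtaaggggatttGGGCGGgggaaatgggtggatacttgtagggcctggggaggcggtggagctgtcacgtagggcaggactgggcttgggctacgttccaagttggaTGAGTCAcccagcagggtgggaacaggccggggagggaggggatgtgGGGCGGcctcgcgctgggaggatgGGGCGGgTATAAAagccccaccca
Umod: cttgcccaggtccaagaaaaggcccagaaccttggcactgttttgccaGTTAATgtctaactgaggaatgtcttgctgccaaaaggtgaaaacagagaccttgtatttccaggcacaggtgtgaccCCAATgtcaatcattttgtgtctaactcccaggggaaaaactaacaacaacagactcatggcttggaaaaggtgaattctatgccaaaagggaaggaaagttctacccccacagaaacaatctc
The search covered 6 motifs on both strands. These were the AP-1 site TGANTCA (in 6.75% of 32851 RefSeq promoters of this length), the RUNX core TGTGGT (14%), the TATA box TATAAA (12.4%), CCAAT (33.8%), the HNF1 half-site GTTAAT (6.43%) and the SP1 box GGGCGG (32.7%). No match overlapped another. The Spp1 window held a RUNX core on the reverse strand, a TATA box 211 to 206 bases before the start, and the HNF1 half-site. It also held a CCAAT box on the reverse strand; both are printed as their reverse complements. A second RefSeq start of Spp1 had none of the 6 in its window. Anxa2 held an AP-1 site 95 to 89 bases before the start, 3 SP1 boxes, and a TATA box at 17 to 12 bases. Anxa1 held a TATA box at 32 to 27 bases, and Cd44 held none of the 6. Umod held a CCAAT box and the HNF1 half-site, which it thus shared with Spp1. These matches describe letters only and are not tests of any factor.

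The members spanned a wide range of levels. Per kilobase of exon, Umod was highest in untreated controls at 949 ± 173 CPM per kb (SD, n = 5), ahead of Spp1 (349.9 ± 36.6), Mgp (46.6 ± 7.81), Anxa2 (12.8 ± 2.06), Anxa1 (3.06 ± 0.658), Ambp (1.07 ± 0.553) and Cd44 (0.379 ± 0.0850). No 2 neighbours in that order overlapped between libraries. In untreated oxalate libraries Spp1 (1837 ± 443 CPM per kb) stood above Umod (917 ± 104), and the ranges of the 5 libraries did not overlap. Anxa2 (51.4 ± 17.2) and Anxa1 (46.8 ± 32) overlapped there, and Cd44 (6.47 ± 3.18) was above Ambp (1.08 ± 0.192) in every library. With alkali the oxalate libraries had Spp1 at 1275 ± 485 and Umod at 981 ± 123 CPM per kb, with overlapping ranges, and Cd44 (2.49 ± 0.926) overlapped Ambp (1.61 ± 0.653). Has2 and Has1 were the lowest members in untreated oxalate libraries, at 0.140 ± 0.103 and 0.0837 ± 0.0883 CPM per kb.

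**Figure D1:**
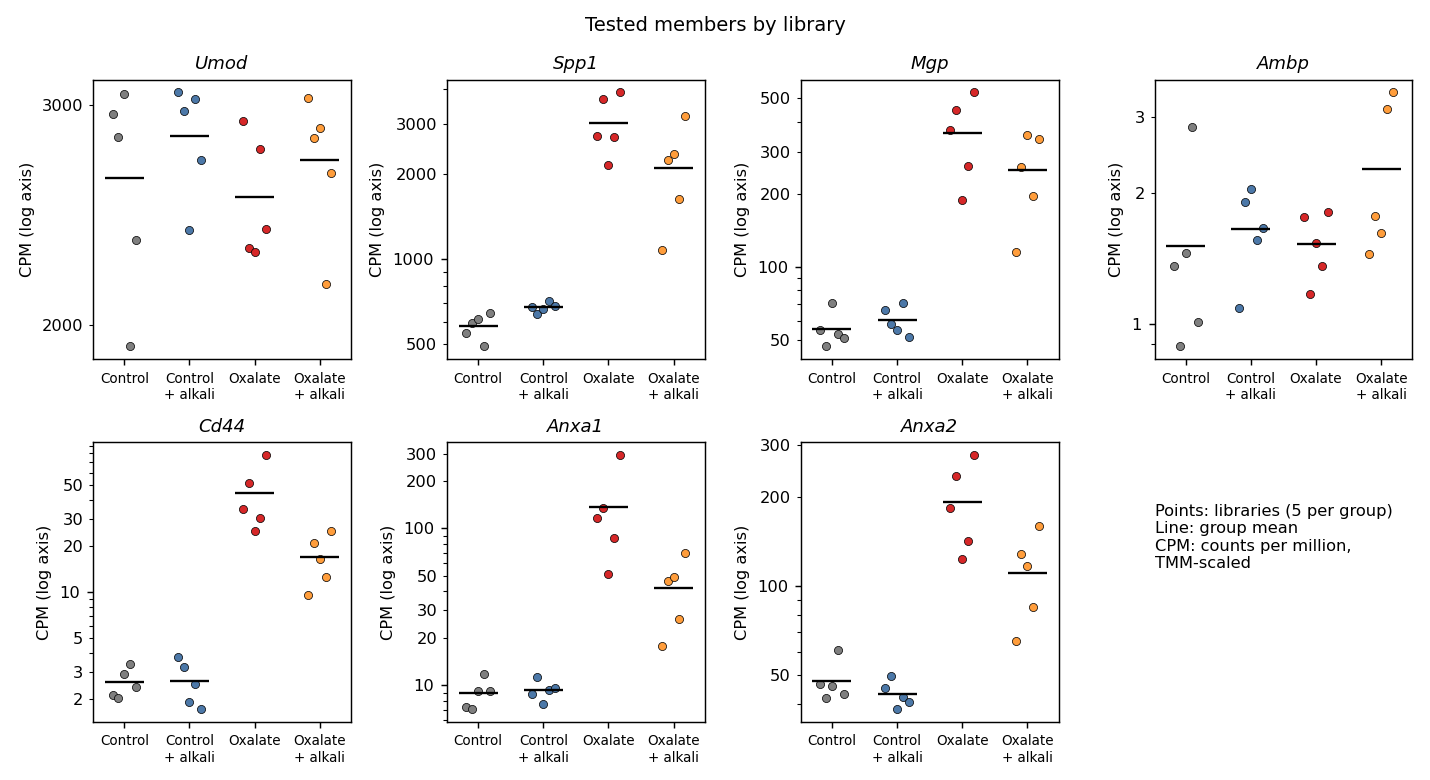
Level of each tested member (CPM, log axis) in the 20 libraries, with a point per library and a line at the group mean. Spp1, Mgp, Cd44, Anxa1 and Anxa2 lie higher in all 10 oxalate libraries than in all 10 control libraries, while the groups overlap for Umod and Ambp.

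Untreated oxalate libraries were first set against untreated control libraries, to show what differed with crystal nephropathy. Of the 7 tested members 5 rose and 0 fell, namely Cd44, Anxa1, Mgp, Spp1 and Anxa2, and in each the libraries of the groups did not overlap. Over all genes tested 49.4% were called in this comparison, 26.4% higher and 23.1% lower. The share of all genes whose libraries did not overlap was not counted. The median log2 fold change was 2.39 over the tested members and 0 over all tested genes. Umod and Ambp were not called. Leaving out the 6 libraries with Adipoq gave 6 called members in place of 5 only by the counting of Has2, which then passed the filter. Has2 passed only through its counts in untreated oxalate libraries, the group where it was high. Its call was thus favoured by the filter and adds no support.

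Spp1 encodes osteopontin, a phosphorylated glycoprotein that thick ascending limb and collecting duct cells secrete into urine and that macrophages also make. Its level was 591, 613, 490.4, 644 and 545 CPM in untreated control libraries 13, 19, 26, 35 and 9. In untreated oxalate libraries 12, 3, 32, 39 and 40 it was 3688, 2727, 2146, 2701 and 3880 CPM. The lowest oxalate library thus lay over 3 times above the highest control library. Spp1 rose 5.25-fold (log2 2.39 ± 0.22, edgeR adjusted p = 4.5e-07). The gene lies on chromosome 5 (GRCm38, 104435118 to 104441050, plus strand), and 309 bases (18.75%) of its exons are shared with the predicted gene Gm42793 on the same strand. How reads there were assigned is not given in the sources used here; Gm42793 held 38750 counts over the 20 libraries against 1077928 for Spp1.

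Mgp encodes matrix Gla protein, a vitamin K-dependent inhibitor of calcification made by vascular smooth muscle, fibroblast and epithelial cells. It stood at 46.9, 71.1, 53.0, 51.0 and 54.9 CPM in control libraries 13, 19, 26, 35 and 9. In oxalate libraries 12, 3, 32, 39 and 40 it reached 449, 368, 189, 261 and 529 CPM. All 5 oxalate libraries were above all controls, and libraries 32 and 39 were the lowest of them, as for Spp1. Mgp rose 6.49-fold (log2 2.70 ± 0.28, edgeR adjusted p = 7.33e-07). It lies on chromosome 6 (136872435 to 136875823, minus strand).

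Umod encodes uromodulin, the main protein of normal urine, made only in the thick ascending limb and early distal tubule. It was measured at 2832, 3063, 1923, 2339 and 2954 CPM in control libraries 13, 19, 26, 35 and 9. The oxalate libraries 12, 3, 32, 39 and 40 had 2307, 2915, 2287, 2766 and 2390 CPM, within the control range. The log2 difference was -0.05 ± 0.14 (95% interval -0.34 to 0.24, edgeR adjusted p = 0.788), and with total-count scaling it was 0.25. This interval does not reach a 1.5-fold change in either direction under TMM. Other genes of the thick ascending limb, named after their values were seen, moved both ways. Of 9 tested markers of that segment, 2 were called higher (Cldn16 by 0.80 ± 0.13 and Cldn19 by 0.55 ± 0.15, both claudins of the tight junction) and 3 lower (Ppp1r1b by -0.87 ± 0.12, Cldn10 by -0.77 ± 0.11 and Sgms2 by -0.43 ± 0.11), or 4 higher and 2 lower with total-count scaling. Their summed level was 1558 to 2032 CPM in control and 1459 to 1855 CPM in oxalate libraries. Umod lies on chromosome 7 (119462711 to 119479282, minus strand), where 539 bases of its exons face the antisense gene Gm44588, which was not counted.

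Ambp encodes the precursor of alpha-1-microglobulin and of bikunin, the light chain of inter-alpha-inhibitor, and is chiefly a liver gene. It was low throughout, at 0.889 to 2.84 CPM (median 1.36) in control and 1.17 to 1.81 CPM (median 1.54) in oxalate libraries. The highest control value was that of library 26, one of those with Adipoq. The groups overlapped and the log2 difference was 0.01 ± 0.30 (95% interval -0.63 to 0.64, edgeR adjusted p = 0.986), so a change of up to about 1.5-fold either way was not excluded. Genes of the liver list summed to 109 to 286 CPM in control and 178 to 269.8 CPM in oxalate libraries.

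Cd44 encodes the main cell-surface receptor for hyaluronan, which also binds osteopontin and is carried by leukocytes, activated fibroblasts and regenerating tubule cells. It had 2.03, 2.92, 3.39, 2.39 and 2.11 CPM in control libraries 13, 19, 26, 35 and 9. Oxalate libraries 12, 3, 32, 39 and 40 had 51.5, 34.8, 24.8, 30.1 and 77.9 CPM. No oxalate library came near the control range. The 17.0-fold rise (log2 4.09 ± 0.34, edgeR adjusted p = 1.78e-07) was the largest of the tested members. Cd44 lies on chromosome 2 (102811141 to 102901665, minus strand) and is made in several splice forms, which gene counts do not separate.

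Has1 and Has2, the synthases that extrude hyaluronan through the plasma membrane, were counted in so few reads that raw counts are given. Has2 had 42, 18, 3, 8 and 37 counts in untreated oxalate libraries 12, 3, 32, 39 and 40, and 0 in all 5 untreated control libraries. Has1 had 27, 26, 2, 1 and 8 counts in the same oxalate libraries, and in controls 2 counts, both in library 19. The counts thus lay mainly in oxalate libraries 12, 3 and 40, with few in 32 and 39. As a share of all counts pooled over a group, Has2 was at least 33.7-fold higher in oxalate than in control libraries (floor of 3 counts over the control group), and Has1 was 29.9-fold higher (95% exact counting interval 7.96 to 253). These intervals cover counting error only. Without the low-count filter edgeR called both, Has2 at adjusted p = 9.42e-05 and Has1 at adjusted p = 0.00555. Has2 (chromosome 15, 56665627 to 56694539, minus strand) shares 182 exon bases with the antisense gene Has2os. Has1 lies on chromosome 17 (17843323 to 17855205, minus strand). The other hyaluronan synthase, Has3, named after its values were seen, was not called (0.30 ± 0.35, edgeR adjusted p = 0.486).

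**Figure D2:**
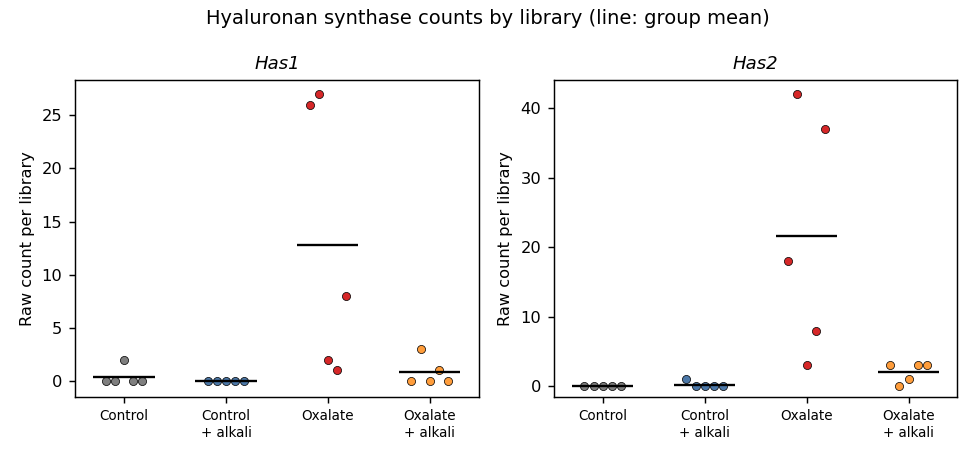
Raw counts of Has1 and Has2 in each of the 20 libraries (points) with the group mean (line). Counts reach 27 for Has1 and 42 for Has2 in untreated oxalate libraries and at most 3 in any library of the other groups.

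Anxa1 encodes annexin A1, a calcium-dependent membrane-binding protein of leukocytes and epithelia that also acts on formyl peptide receptors. It was measured at 7.07, 9.20, 11.8, 9.17 and 7.31 CPM in control libraries 13, 19, 26, 35 and 9. Oxalate libraries 12, 3, 32, 39 and 40 had 135, 116, 51.0, 86.7 and 293 CPM. Library 40 alone exceeded 200 CPM, and all 5 were above every control. Anxa1 rose 15.3-fold (log2 3.93 ± 0.41, edgeR adjusted p = 9.18e-07) and by 3.40 without library 40. It lies on chromosome 19 (20373428 to 20390944, minus strand).

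Anxa2 encodes annexin A2, which with S100A10 forms a membrane complex and has been described as a receptor for calcium oxalate crystals. Control libraries 13, 19, 26, 35 and 9 had 41.7, 46.0, 61, 43.1 and 46.5 CPM, with library 26 apart from the rest. Oxalate libraries 12, 3, 32, 39 and 40 had 235, 183, 123, 142 and 277 CPM. The lowest oxalate value was above the highest control value. Anxa2 rose 4.03-fold (log2 2.01 ± 0.22, edgeR adjusted p = 1.19e-06). It lies on chromosome 9 (69453620 to 69491795, plus strand).

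Markers of some other cells rose beside these 5 genes. All 11 macrophage and monocyte markers were called higher, and their summed level was 132 to 176 CPM in control and 745 to 2915 CPM in oxalate libraries. All 8 fibroblast markers were higher (173 to 242 against 478 to 1746 CPM), as were 9 of 10 injured tubule markers (201 to 234 against 470.4 to 887 CPM) and 8 of 8 T and NK cell markers (3.73 to 7.42 against 31.8 to 104 CPM). Of podocyte and parietal cell markers 6 of 7 were higher, and of smooth muscle and pericyte markers 4 of 6. Of collecting duct markers 3 of 7 were higher, and of endothelial markers 1 of 7 (6 and 5 with total-count scaling). None of these lists had a marker called lower. Over all tested genes 26.4% were called higher, and total-count scaling raised the median of all genes by 0.302. Of tested neutrophil markers 2 of 3 were higher, of B and plasma cell markers 2 of 6 and of urothelium markers 1 of 7. Of 6 liver markers 1 was higher and 1 lower, and of 5 tested adipose and adrenal markers 0 were called. All 10 proximal tubule markers were lower (6 with total-count scaling), at 18437 to 21376 CPM in control and 5316 to 13951 CPM in oxalate libraries. The part of these cell types in the rise of the members was not tested. In such bulk libraries, more cells of a type and more RNA per cell cannot be told apart.

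Oxalate libraries with and without alkali were compared to ask what differed with alkali in diseased mice. Of the 7 tested members 3 fell, Cd44, Anxa1 and Anxa2, and 0 rose. Over all genes tested 4.08% were called, 2.33% lower and 1.76% higher. The median log2 fold change of the tested members was -0.53, against 0.006 over all genes. In each of the 7 members the libraries of the groups overlapped. The fit to all 20 libraries shares 1 spread per gene with the control libraries, which mostly differed less from each other than oxalate libraries did. With the fit restricted to the 10 oxalate libraries, 0 members were called (edgeR adjusted p = 0.124 for Cd44, 0.152 for Anxa1 and 0.234 for Anxa2; 29 genes called in all). Without the 6 libraries with Adipoq, 5 were called lower: Spp1 and Has2 besides these 3. Has2 was tested there only because of its high counts in untreated oxalate libraries, so its call adds no support.

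**Figure D3:**
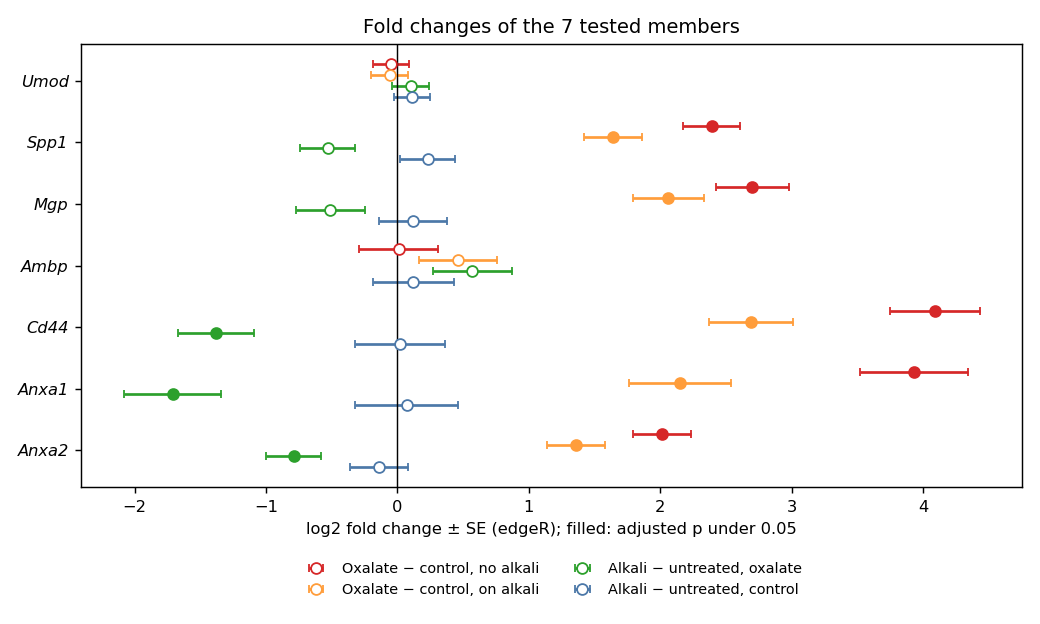
Log2 fold change with SE (edgeR) of the 7 tested members in 4 comparisons, filled where called at an adjusted p under 0.05. Spp1, Mgp, Cd44, Anxa1 and Anxa2 are to the right of 0 in both oxalate comparisons, Cd44, Anxa1 and Anxa2 are called to the left with alkali in oxalate mice, and all 7 are near 0 with alkali in control mice.

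Cd44 had 9.58, 12.4, 25.1, 20.9 and 16.4 CPM in alkali-treated oxalate libraries 2, 30, 33, 5 and 8. Of these only library 33 reached the range of the untreated oxalate libraries, whose lowest value was 24.8 CPM. Cd44 fell by 1.38 on the log2 scale (SE 0.29, 2.60-fold lower, edgeR adjusted p = 0.0135), and the call was kept in all 20 fits that left out 1 library (adjusted p 0.00496 to 0.0457).

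Anxa1 had 17.7, 26.4, 69.5, 46.0 and 48.8 CPM in alkali-treated libraries 2, 30, 33, 5 and 8. Libraries 2 and 30 were below the other 3, and library 33 lay within the untreated oxalate range. Anxa1 fell by 1.71 on the log2 scale (SE 0.37, 3.27-fold lower, edgeR adjusted p = 0.016). The call was lost without alkali-treated library 30 (adjusted p = 0.0529) and kept in the other 19 fits.

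Anxa2 had 65.2, 84.8, 159, 128 and 117 CPM in alkali-treated libraries 2, 30, 33, 5 and 8. Libraries 33 and 5 fell in the untreated range, and the other 3 below it. The decrease of 0.79 on the log2 scale (SE 0.21, 1.73-fold lower, edgeR adjusted p = 0.0426) was near the threshold. It was not called with total-count scaling (adjusted p = 0.0861) or without the low-count filter (0.0549), and was kept in 7 of 20 fits that left out 1 library (adjusted p 0.0117 to 0.12). The 7 were those without control 13, 19 or 26, alkali-treated control 4, untreated oxalate 32 or 39, or alkali-treated oxalate 33.

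Spp1 and Mgp were not called. Spp1 had 1078, 1628, 3196, 2242 and 2359 CPM in alkali-treated libraries 2, 30, 33, 5 and 8, so that libraries 33, 5 and 8 lay within the untreated oxalate range. Its log2 difference was -0.53 ± 0.21 (95% interval -0.97 to -0.09, edgeR adjusted p = 0.157), and it was called without alkali-treated library 33 (-0.73, adjusted p = 0.0361). Mgp had 115, 196, 338, 259.8 and 351 CPM in the same libraries, with library 2 below the untreated range. Its log2 difference was -0.51 ± 0.26 (95% interval -1.06 to 0.03, edgeR adjusted p = 0.274).

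Umod and Ambp also stayed uncalled. Umod had 3040, 2158, 2650, 2825 and 2880 CPM in alkali-treated libraries 2, 30, 33, 5 and 8, which spans the untreated oxalate range. The log2 difference was 0.10 ± 0.14 (95% interval -0.19 to 0.39, edgeR adjusted p = 0.742). Ambp had 1.45, 3.13, 3.41, 1.77 and 1.62 CPM, with libraries 30 and 33 above every untreated oxalate library (0.57 ± 0.30, 95% interval -0.05 to 1.19, edgeR adjusted p = 0.287).

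Hyaluronan synthase counts were low under alkali. Has2 had 3, 3, 3, 0 and 1 counts in alkali-treated oxalate libraries 2, 30, 33, 5 and 8, against 3 to 42 in untreated ones. Pooled over the groups its share of counts was 11.3-fold higher in untreated than in alkali-treated oxalate libraries (10 against 108 counts, 95% exact counting interval 5.93 to 24.3). Has1 had 4 counts in the alkali-treated and 64 in the untreated libraries, a 16.8-fold ratio (6.24 to 63.5). The untreated libraries differed widely, and counting intervals do not cover that spread. Without the low-count filter edgeR gave adjusted p = 0.0242 for Has2 and 0.0547 for Has1. DESeq2 gave no adjusted p for either gene in this comparison. For oxalate against control on alkali, edgeR without the filter gave adjusted p = 0.127 for Has2 and 0.258 for Has1. For alkali-treated oxalate against untreated control it gave 0.0438 and 0.86.

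Some markers of injured tubule cells and macrophages were also lower with alkali in oxalate libraries. Of 10 injured tubule markers 6 were called lower (summed level 288 to 494 CPM, against 470.4 to 887 CPM untreated). Of 11 macrophage markers 2 were called lower, or 1 with total-count scaling (295 to 950.2 against 745 to 2915 CPM), and 0 of 8 fibroblast markers were (347 to 934 against 478 to 1746 CPM). Of 8 T and NK cell markers 1 was called lower, and of the tested neutrophil and B cell markers 0 were. Their part in the lower level of Cd44, Anxa1 and Anxa2 was not tested.

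In control mice alkali left all 7 tested members uncalled (edgeR adjusted p = 1 for each), as it did all other genes, with 0% called in either direction. At an unadjusted p under 0.05 there were 389 genes and 0 members, and DESeq2 called 3 genes. The largest difference among the members was that of Spp1, at 640.2 to 712 CPM with alkali against 490.4 to 644 CPM without (log2 0.23 ± 0.21, 95% interval -0.21 to 0.67). Cd44 (1.72 to 3.74 CPM), Anxa1 (7.63 to 11.3), Anxa2 (38.4 to 49.8), Mgp (51.4 to 70.9), Umod (2382 to 3073) and Ambp (1.09 to 2.05 CPM) all overlapped the untreated controls. Has1 had 0 counts and Has2 had 1 count over the 5 alkali-treated control libraries.

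Whether the difference with alkali was unlike in oxalate and control mice was tested by the interaction. No member was called, and 0% of all genes were (1429 genes at an unadjusted p under 0.05, and 15 called by DESeq2). The interaction was -1.78 ± 0.53 for Anxa1 (edgeR adjusted p = 0.47), -1.39 ± 0.44 for Cd44 (0.474), -0.76 ± 0.30 for Spp1 (0.478) and -0.65 ± 0.30 for Anxa2 (0.527), each with an unadjusted p under 0.05. For Umod it was -0.01 ± 0.20, with a 95% interval of -0.43 to 0.40.

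On alkali the same 5 members were higher in oxalate than in control libraries, again without overlap, which was not counted over all genes. In this comparison 40.4% of all tested genes were called, 23.4% higher and 17.1% lower. Cd44 was higher by 2.69 ± 0.32 (edgeR adjusted p = 2.34e-05), Anxa1 by 2.15 ± 0.39 (0.000554), Mgp by 2.06 ± 0.27 (5.35e-05), Spp1 by 1.64 ± 0.22 (5.35e-05) and Anxa2 by 1.36 ± 0.22 (0.000217). Umod (-0.06 ± 0.14, adjusted p = 0.728) and Ambp (0.46 ± 0.30, adjusted p = 0.221) were not called. Set against untreated controls, which the first comparison also uses, the alkali-treated oxalate libraries had Cd44 higher by 2.71 ± 0.32 (edgeR adjusted p = 1.85e-05), Anxa1 by 2.22 ± 0.39 (0.000385), Mgp by 2.19 ± 0.27 (2.86e-05), Spp1 by 1.86 ± 0.22 (1.6e-05) and Anxa2 by 1.22 ± 0.22 (0.000424). There 43.1% of genes were called, 24.6% higher and 18.5% lower. Ambp was not called (0.58 ± 0.30, edgeR adjusted p = 0.124). It passed without control library 26 (0.94, edgeR adjusted p = 0.0122) and with total-count scaling (0.82, adjusted p = 0.047). That scaling also moved the median of all genes in this comparison, from 0.028 to 0.274. Alkali-treated oxalate libraries thus kept all 5 genes above both control groups.

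The 5 genes that rose ranked the libraries alike. In untreated oxalate libraries each of Spp1, Mgp, Cd44, Anxa1 and Anxa2 was highest in library 40, followed by 12, 3, 39 and 32, under TMM and under total-count scaling. In alkali-treated oxalate libraries each was lowest in library 2 and next lowest in library 30, and 4 of the 5 were highest in library 33 (Mgp in library 8, or 33 with total-count scaling). The summed markers of macrophages, fibroblasts, neutrophils, smooth muscle and podocytes had the same order in untreated oxalate libraries, 40, 12, 3, 39 and 32, while the injured tubule sum had 12 ahead of 40. In alkali-treated libraries the first 4 of these sums had the order 33, 8, 5, 30 and 2, which is also the order of Spp1 and Anxa1. The proximal tubule sum had the reverse order in untreated oxalate libraries, 32, 39, 3, 12 and 40. With alkali its order was 2, 30, 8, 5 and 33. The TMM scaling factors had the order 40, 12, 3, 39 and 32 in untreated oxalate libraries. With alkali their order was 33, 5, 8, 30 and 2, which is also that of Cd44 and Anxa2. Umod followed another order (3, 39, 40, 12, 32 untreated and 2, 8, 5, 33, 30 with alkali). The link of these marker sums and scaling factors to the members was not tested further.

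**Figure D4:**
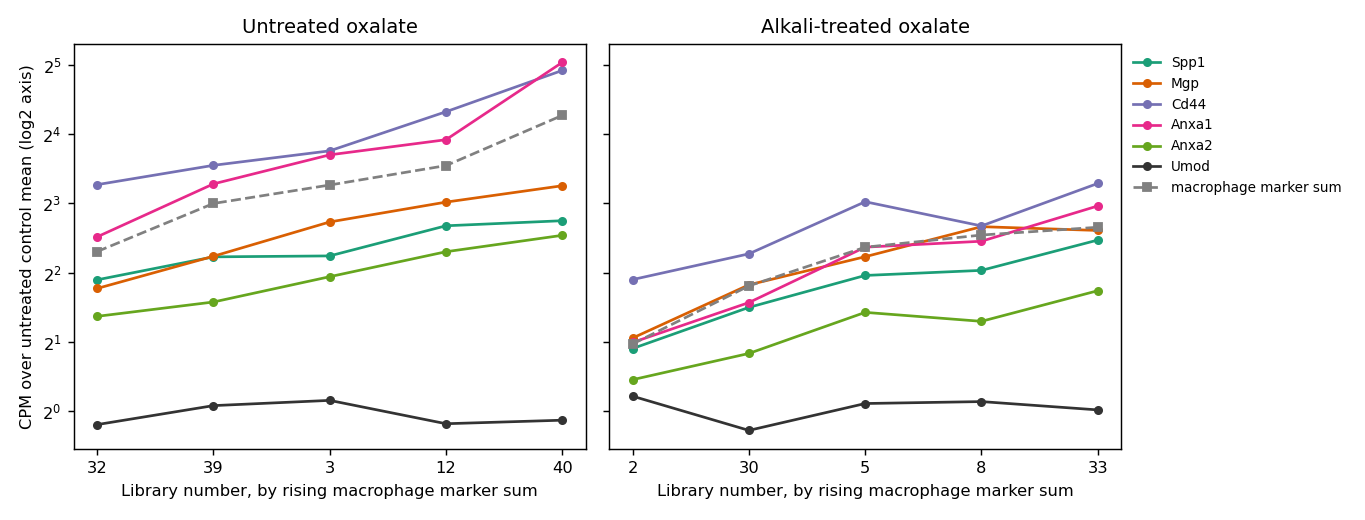
Level of 6 members and of the summed macrophage markers (dashed) in each oxalate library, as a ratio to the untreated control mean (log2 axis), with libraries ordered by the macrophage sum. Spp1, Mgp, Cd44, Anxa1 and Anxa2 climb with the macrophage sum in untreated oxalate libraries from 32 to 40, and Umod stays near 1.

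Taken as deviations from the group means over the 20 libraries, the 10 pairs among these 5 genes had Pearson r of 0.70 (Spp1 with Cd44) to 0.95 (Anxa1 with Anxa2). Other close pairs were Cd44 with Anxa2 (0.91) and Spp1 with Mgp (0.88). Umod had r of -0.14 to 0.08 with them, which became 0.32 to 0.44 with total-count scaling, so that its lack of relation to them depends on the scaling. The points share library preparation and depth, and these values are given as a description. By the same measure the genes most like Anxa1 were Sparc (0.98), Mamdc2 and Gas7 (0.96 each), and those most like Anxa2 were Myof (0.98), Tnc (0.97) and Pid1 (0.96). For Cd44 they were Myof and Adcy7 (0.94 each) and Pid1 (0.93). For Mgp they were Armcx2 and Lgals3 (0.96 each) and Aldh1a2 (0.95), and for Spp1 Serpinb9 (0.96), Ube2l6 (0.94) and Rcn1 (0.93). Umod was closest to Cyfip2 (0.87), Ppp2r2b (0.81) and Mfsd4a (0.78), and Ambp to Usp49 (0.81), Ntrk3 (0.78) and Elovl6 (0.77).

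Receptors and proteases of osteopontin were mostly higher in untreated oxalate than in control libraries. Of 17 tested genes 12 rose and 2 fell, with a median log2 change of 1.18 (15 and 1 with total-count scaling). For this and the lists below, 26.4% of all tested genes were called higher and 23.1% lower in this comparison under TMM. With alkali in oxalate libraries the shares were 1.76% higher and 2.33% lower. Total-count scaling raised the median of all genes by 0.302 in the oxalate comparison, so list counts under it include that shift. The share of all genes called under that scaling is not given here. The matrix metalloproteinases that cut osteopontin led by p: Mmp2 rose by 3.30 ± 0.33 (edgeR adjusted p = 6.25e-07), Mmp12, the macrophage elastase, by 7.58 ± 0.79 (from 2.09 to 402 CPM), Mmp3 by 4.32 ± 0.51 and Mmp7 by 7.61 ± 0.90. Mmp7 had 4 counts over the untreated control libraries and 1251 over the untreated oxalate ones, so the size of its change is uncertain. Mmp3 had 33 and 902 counts. Without untreated oxalate library 40 the Mmp12 change was 6.72, and without control library 35 that of Mmp7 was 8.98. With alkali in oxalate libraries 3 of the 17 fell: Mmp12 by 2.45 ± 0.60 on the log2 scale (adjusted p = 0.0289), the integrin Itgb3 by 0.99 ± 0.26 and the integrin Itga5 by 0.86 ± 0.24. The Mmp12 value was -1.63 without untreated library 40 (adjusted p = 0.107). Its call was also lost without untreated library 12 or alkali-treated library 30, that of Itgb3 in those 3 fits and without untreated library 3 or alkali-treated library 2 or 8, and that of Itga5 was kept in 3 of 20 fits. With total-count scaling 1 of the 17 was called lower (adjusted p = 0.0643 for Itgb3 and 0.0826 for Itga5), and without the low-count filter Mmp12 was not called (0.0556). With only the oxalate libraries fitted, none of the 3 was called (edgeR adjusted p = 0.193, 0.219 and 0.233 for Mmp12, Itgb3 and Itga5).

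Among 18 tested inter-alpha-inhibitor chains and other mineral inhibitors, 7 rose and 5 fell in untreated oxalate libraries (median 0.57), and with total-count scaling 10 rose and 3 fell. Clu, the secreted chaperone clusterin, rose by 1.82 ± 0.22 (edgeR adjusted p = 2.59e-06), from 258 to 911 CPM. Itih3, a heavy chain that pairs with bikunin and is transferred to hyaluronan, rose by 2.05 ± 0.27, and another heavy chain, Itih2, fell by 1.26 ± 0.19 on the log2 scale. F2, which encodes prothrombin, the source of a urinary crystal-matrix fragment, fell by 2.39 ± 0.32. With alkali in oxalate libraries 2 rose and 1 fell. F2 rose by 3.77 ± 0.32 (adjusted p = 2.11e-06), from 0.183 to 2.50 CPM, and was called in all 20 fits without 1 library and with only the oxalate libraries fitted. In control mice F2 was 0.719 to 1.22 CPM without and 1.53 to 2.71 CPM with alkali, and the libraries did not overlap, but this difference was not called (1.25 ± 0.27, edgeR adjusted p = 0.614). The interaction for F2 was not called either (2.52 ± 0.41, edgeR adjusted p = 0.0907). The heavy chain Itih5 rose by 0.44 ± 0.10, a call lost without untreated oxalate library 12 (adjusted p = 0.0671) or 40 (0.0509) or alkali-treated library 30 (0.0506). The phosphate transporter Slc20a1 fell by 0.94 ± 0.26 on the log2 scale and kept its call in 5 of 20 fits; it was not called with total-count scaling (adjusted p = 0.0532) or without the low-count filter (0.071). With only the oxalate libraries fitted, neither Itih5 nor Slc20a1 was called (edgeR adjusted p = 0.138 and 0.128).

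Of 10 genes for gamma-carboxylation, which activates matrix Gla protein, and for bone morphogenetic protein signalling, which it binds, 2 rose and 4 fell in untreated oxalate libraries (median -0.18). Acvrl1, a receptor of that pathway, rose by 0.94 ± 0.15 (edgeR adjusted p = 5.88e-05) and the ligand Bmp2 by 1.06 ± 0.24. The ligands Bmp4 and Bmp7 were lower by -0.36 ± 0.08 and -0.45 ± 0.11, but with total-count scaling neither was called (-0.05 and -0.16) and the list had 4 genes higher and 0 lower. None of the 10 was called with alkali in oxalate mice.

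Of 9 tested genes for uromodulin processing and other apical glycoproteins, 2 rose and 4 fell in untreated oxalate libraries (median -0.07; 4 and 3 with total-count scaling). Muc1, a membrane mucin, rose by 1.82 ± 0.28 (edgeR adjusted p = 3.76e-05) and St14, a membrane serine protease, by 0.70 ± 0.13. Egf, whose precursor is made in the thick ascending and distal tubule, fell by 0.91 ± 0.22 on the log2 scale. Hpn, the protease hepsin that releases uromodulin from the membrane, fell by 0.74 ± 0.19 (adjusted p = 0.00346), with Umod itself not called. Alkali in oxalate mice gave 0 calls among the 9.

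Of 17 tested genes for hyaluronan synthesis, breakdown and binding, 6 rose and 4 fell in untreated oxalate libraries (median 0.30; 6 and 2 with total-count scaling). Cemip, which takes part in hyaluronan breakdown, rose by 3.98 ± 0.55 (edgeR adjusted p = 1.29e-05), from 0.136 to 2.20 CPM. The scavenger receptor Stab1 rose by 1.51 ± 0.27, Ptx3, which cross-links hyaluronan matrix, by 2.06 ± 0.42, and the receptor Hmmr by 1.67 ± 0.40. Of the 17, 0 were called with alkali in oxalate mice.

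Of 16 partners of CD44 and proteases that shed it, 7 rose and 5 fell in untreated oxalate libraries (median 0.11), and with total-count scaling 10 rose and 0 fell. The median of the list was then 0.41, against 0.302 over all genes. Mmp14, a membrane protease that cuts CD44, rose by 3.02 ± 0.28 (edgeR adjusted p = 4.5e-07), from 7.99 to 64.7 CPM. Cd74, a co-receptor with CD44, rose by 2.31 ± 0.24, the filament protein Vim by 2.73 ± 0.29 and the lectin Lgals9 by 1.38 ± 0.21. With alkali in oxalate libraries Vim alone of the 16 fell, by 1.01 ± 0.28 on the log2 scale (adjusted p = 0.0434), and its call was kept in 7 of 20 fits without 1 library. With total-count scaling 0 of the 16 were called (adjusted p = 0.0687 for Vim). Vim was also not called without the low-count filter (0.0675) or with only the oxalate libraries fitted (0.241).

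Of 16 other annexins, S100 partners and annexin A1 receptors, 11 rose and 1 fell in untreated oxalate libraries (median 0.86; 13 and 0 with total-count scaling). Anxa3 rose by 2.14 ± 0.26 (edgeR adjusted p = 3.17e-06), from 11.6 to 50.7 CPM, and S100a4 by 2.44 ± 0.32. S100a10, the partner of annexin A2, rose by 0.70 ± 0.09 (from 77.6 to 126 CPM) and Plat, tissue plasminogen activator, which that complex binds, by 0.87 ± 0.13. With alkali in oxalate libraries 2 of the 16 fell. S100a10 fell by 0.48 ± 0.09 on the log2 scale, to 90.4 CPM (adjusted p = 0.00804). It was called in all 20 fits without 1 library, but not with only the oxalate libraries fitted (-0.46, edgeR adjusted p = 0.105). Anxa3 fell by 0.95 ± 0.25 (adjusted p = 0.0354), a call lost without untreated library 12, 3 or 40 or alkali-treated library 2, 30 or 8 (adjusted p 0.0511 to 0.105). Anxa3 was also not called with total-count scaling (0.0671), without the low-count filter (0.054) or with only the oxalate libraries fitted (0.228). With alkali in control mice 0 genes of any of these lists were called.

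**Figure D5:**
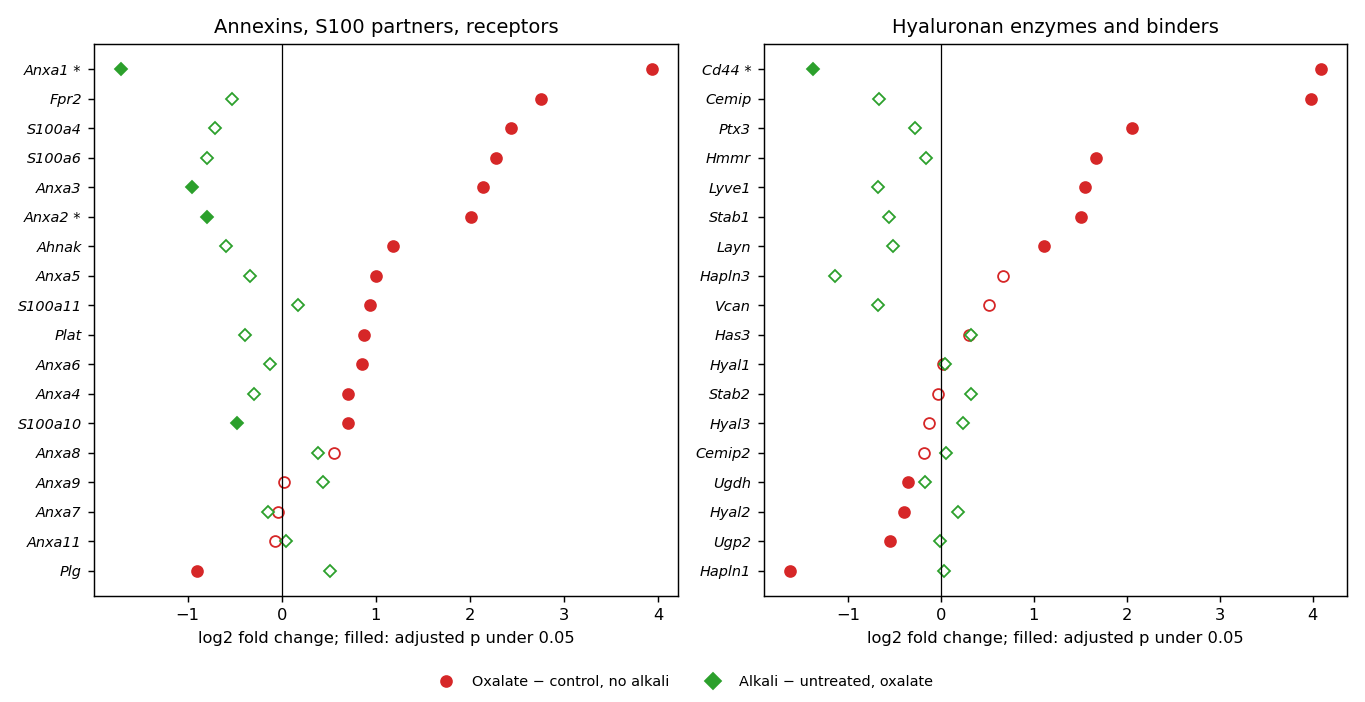
Log2 fold change (edgeR) of untreated oxalate against control (circles) and of alkali against no alkali in oxalate mice (diamonds) for annexins, S100 partners and receptors (left) and hyaluronan genes (right), filled where called, with the members marked by an asterisk. Anxa1 and Cd44 have the highest oxalate values of their panels, and the called diamonds are those of Anxa1, Anxa2, Anxa3, S100a10 and Cd44.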

How the data were processed

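RNA from 20 mouse libraries was prepared with a stranded poly(A) TruSeq kit, per the labels' protocols. The authors deposited unnormalised gene counts (whole numbers for 25700 Ensembl mouse identifiers), made with bcl2fastq 2.19, Trimmomatic, STAR 2.7.1 and featureCounts, per the submitters' processing notes. The notes also name edgeR, and name GRCh38.p5, which is human, as the build, although the identifiers are those of mouse. The strand setting of the counting is not given in the sources used here, so counts of genes that overlap others (Spp1, Umod, Has2 and Anxa2 among the members) are uncertain. Symbols and coordinates came from GENCODE M21 (GRCm38), which matched 25664 identifiers; the 36 others held at most 0.0226% of any library's counts.

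Groups and library numbers were taken from titles and treatment labels. Libraries of a group differed beyond sampling noise (chi-square per degree of freedom at least 9.54), so none was a copy. Analysis used R 4.3.3 and edgeR 4.0.16 (filterByExpr with a minimum count of 10, TMM, robust glmQLFit and glmQLFTest, 4 group means), with Benjamini-Hochberg adjustment over 15430 genes. The biological coefficient of variation common to all genes was 0.200. An SE is the log2 fold change over the root of F, and log2 CPM used a prior count of 2. The code was tested on simulated counts. Depth was 25547840 to 39550689 counts, so for genes with many counts precision was set by the spread between libraries. Counting noise also bears on genes with few counts. These include Has1, Has2, Ambp (21 to 124 counts per library), and Mmp7 and Mmp3 in untreated control libraries (4 and 33 counts over the group).

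All 9 members were described. From each related list up to 4 called genes with the smallest p were named per comparison, and for each tested member the 3 most correlated genes with a symbol and an average log2 CPM of at least 1. The members and lists were chosen with earlier results of these data known. Alternatives were other scalings, DESeq2 1.42.0, no low-count filter, only the groups compared, leaving out each library in turn, and leaving out the 6 libraries with Adipoq above 1 CPM. Promoters were taken from RefSeq, and protein sequences were not used here.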

Additional observations from a re-analysis of the deposited data

Results flagged for a closer look

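In untreated control mice, Anxa2 was 61 CPM in library 26, which lay apart from the other 4 (41.7 to 46.5 CPM) by Dixon's gap test at the 95% level. Chance gives such a gap in about 1 in 20 groups, and 30 sets of a gene and a group were examined, of which 1 was past the limit. Library 26 also held Adipoq at 29.7 CPM and the highest control levels of Cd44, Anxa1 and Ambp. The part of the fat-cell RNA was not tested. Without library 26, Anxa2 was higher by 2.11 on the log2 scale in untreated oxalate than in control libraries, and remained called by edgeR.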

How the results depend on the processing

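The calls of Spp1, Mgp, Cd44, Anxa1 and Anxa2 as higher in oxalate libraries, untreated or on alkali, held under every alternative run. The difference with alkali in oxalate mice depended more on the settings. In the main fit 630 genes were called, against 1191 by DESeq2, 1263 without the libraries with Adipoq and 29 with only the 2 groups compared. With 1 library left out the count ran from 185 (without untreated oxalate library 12) to 1160 (without untreated oxalate library 32). For the members these counts were 3, against 0 with only the 2 groups, 5 without the Adipoq libraries (Has2 among them) and 1 to 4 with 1 library left out. Fewer libraries set the spread when only 2 groups are fitted, while the fit to all 20 libraries shares 1 spread per gene over the 4 groups. Between libraries of a group, chi-square per degree of freedom was 19.8 to 39.5 in untreated and 9.54 to 28.6 in alkali-treated control libraries. It was 24 to 228 in untreated and 41 to 161 in alkali-treated oxalate libraries. The shared spread thus takes in control libraries that mostly differed less from each other. With only the 2 groups fitted, the SE was 0.33 for Cd44, 0.46 for Anxa1 and 0.27 for Anxa2, against 0.29, 0.37 and 0.21. The cause of these shifts was not tested. Alkali in control mice gave 3 genes by DESeq2 and 0 to 1 with 1 library left out, and the interaction gave 15 by DESeq2, 1 without the Adipoq libraries and 0 to 3 with 1 left out. Oxalate on alkali gave 6237 genes, 3219 without the Adipoq libraries and 4428 to 7927 with 1 left out.

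Signs turned only for members that were not called. With total-count scaling Umod was 0.25 (oxalate, untreated) and 0.15 (oxalate on alkali), and without the filter Ambp was -0.04 (oxalate, untreated). Without the Adipoq libraries, alkali in control mice gave -0.02 for Umod and -0.28 for Cd44, alkali-treated oxalate against untreated control gave -0.05 for Umod, and the interaction gave 0.11 for Umod and -0.24 for Ambp. With 1 library left out, Umod ran from -0.14 to 0.01 (oxalate, untreated), -0.12 to 0.01 (on alkali), -0.05 to 0.12 (alkali-treated oxalate against untreated control) and -0.08 to 0.08 (interaction). Ambp ran from -0.13 to 0.37 (oxalate, untreated). With alkali in control mice Cd44 ran from -0.15 to 0.14, Anxa1 from -0.01 to 0.19 and Ambp from -0.02 to 0.48. No paired analysis was possible because no library number is shared between groups. Depth limits Has1 and Has2, which were under the low-count filter with all 20 libraries. Without the Adipoq libraries Has2 passed it, through its counts in untreated oxalate libraries.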
